A study of Mus musculus with 16 samples.

Results

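The transcription factors Pax5, Ebf1, Bach2, Bcl6, Spib, Irf8, Irf4, Prdm1 (which encodes Blimp-1), Pou2af1 and Mitf were followed from nontransgenic B cells through Eμ-xbp-1s B cells to Eμ-xbp-1s multiple myeloma (MM). Members were all probe sets that the platform annotation gives to 1 of these symbols alone, which yielded 21 probe sets for the 10 genes, of 45037 probe sets for 18194 named genes on the array. RNA was hybridised from B220+ splenic B cells of 5 nontransgenic mice and of 5 Eμ-xbp-1s mice, all 20 weeks old and collected with magnetic beads, and from 6 myeloma tumours of Eμ-xbp-1s mice. Eμ-xbp-1s mice carry a cDNA of spliced XBP-1, followed by an internal ribosome entry site and a farnesylated eGFP, under the immunoglobulin VH promoter and the Eμ enhancer, which drive it through B cell development and in some T cells. The mice derive from C57BL/6 oocytes and the S.9 and S.7 founders, and the founder of each sample and the age at tumour collection are not given in the sources used here. No sort is named for the tumours, so each of these values is that of bulk RNA, in which fewer cells of a type and less RNA per cell cannot be told apart.

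Pax5 and Ebf1 hold cells in the B lineage, and Bach2 and Bcl6 keep an activated B cell from becoming a plasma cell, Bcl6 above all in the germinal centre. Irf4 and Blimp-1 drive the plasma cell programme, in which Pax5, Bcl6, Spib and other B cell genes are shut off and XBP-1 expands the secretory apparatus. Spi-B and Irf8 act with the factor PU.1 or its relatives at B cell genes, Pou2af1 (OCA-B) is the coactivator of the octamer factors at immunoglobulin promoters, and Mitf, best known from melanocytes and osteoclasts, can hold Irf4 down in resting B cells.

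XBP-1s is itself a DNA-binding factor, so the promoters of the members (250 bases before to 50 after the start, RefSeq, GRCm38.p6) were searched on both strands. All 10 genes matched, with 15 windows. The XBP1 site TGACGTGG lay in the window of 1 member, Pou2af1, at bases -61 to -54 from its start, and in 0.676% of 32851 mouse promoters. This stretch before the start of Pou2af1, chr9:51213440-51213689 on the plus strand, is shown because it alone among the members held the letters of the transgene's own factor, with the site in capitals.

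Pou2af1: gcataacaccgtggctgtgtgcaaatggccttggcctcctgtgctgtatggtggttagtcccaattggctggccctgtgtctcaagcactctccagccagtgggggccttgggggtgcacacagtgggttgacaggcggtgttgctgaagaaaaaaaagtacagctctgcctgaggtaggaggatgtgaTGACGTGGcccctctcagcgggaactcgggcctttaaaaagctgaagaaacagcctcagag

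The EBF core CCCNNGGG was found in the windows of Spib and Irf8 and in 13.7% of all promoters. In Spib it occurred at overlapping positions between bases -65 and -57, shown in capitals within chr7:44532098-44532166 on the minus strand, because Spib was among the members that lay lower on every Eμ-xbp-1s array than on any nontransgenic array.

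Spib: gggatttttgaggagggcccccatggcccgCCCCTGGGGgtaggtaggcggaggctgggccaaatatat

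The PU.1 core GAGGAA lay in windows of Bcl6, Ebf1, Irf4, Pou2af1 and Prdm1 and in 28.3% of all promoters, and the interferon response pair GAAANNGAA in a window of Ebf1 and in 8.56% of all. The octamer ATGCAAAT, the Blimp-1 core GAAAGTGAA and the MITF M box TCATGTGA, in 1.74%, 0.581% and 0.986% of all promoters, had no match in the members' windows. No match in the printed stretches overlapped one of another motif. A match describes letters and not a bound site.

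Values are deposited dChip intensities on a linear scale, and a level is compared only between arrays for the same probe set. Array medians lay between 69.0 and 82.9. For tests a floor of 50 was applied, a probe set entered limma if over 20% of the arrays compared exceeded 100, and an adjusted p under 0.01 was called. Differences between the B cell groups are given as Eμ-xbp-1s over nontransgenic throughout. The 4 defining B cell markers Cd79a, Cd79b, Cd22 and Ms4a1 had mean log2 levels of 12.5 to 12.6 on the nontransgenic arrays and 11.3 to 12.2 on the Eμ-xbp-1s B cell arrays. MM replicates 1 to 3 lay at 11.5, 11.3 and 11.5, replicate 6 at 9.73 and replicates 4 and 5 at 7.93 and 6.46, so the defining B cell markers were close to the floor on replicate 5. Markers of other cells also moved. In Eμ-xbp-1s B cells 8 of 9 tested T cell genes and 6 of 9 tested neutrophil genes were called higher. In MM 6 of 7 stromal genes were called higher than in either B cell group. The stromal genes called stayed under 100 on every B cell array, so they entered these tests only through the MM arrays. Some T cell and neutrophil genes called, such as Cd3d, Thy1, Camp and Mmp8, likewise exceeded 100 on no nontransgenic array. Calls of such genes support nothing further. Mean log2 levels of the T cell genes were 6.73 to 6.91 on nontransgenic arrays, 9.21 to 9.68 on Eμ-xbp-1s B cell arrays and 6.46 to 8.94 in MM, and those of the stromal genes were 5.82 to 6.06, 5.90 to 6.13 and 9.14 to 10.4. The neutrophil genes lay at 6.32 to 6.87 and 8.57 to 10.8 in the B cell groups, at 12.3 and 11.4 on MM replicates 4 and 5 and at 6.20 to 7.11 on the other MM arrays. The erythroid genes lay at 6.06 to 6.46 on nontransgenic arrays, at 9.11 on Eμ-xbp-1s B cell replicate 3 and 6.99 to 8.02 on the rest of that group, and at 10.6 and 11.6 on MM replicates 4 and 5 and 6.10 to 6.34 on the other MM arrays. MM replicates 4 and 5, the arrays lowest in B cell markers, were thus the MM arrays highest in erythroid and neutrophil genes. The part of these cells in the members' values was not tested.

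**Figure D1:**
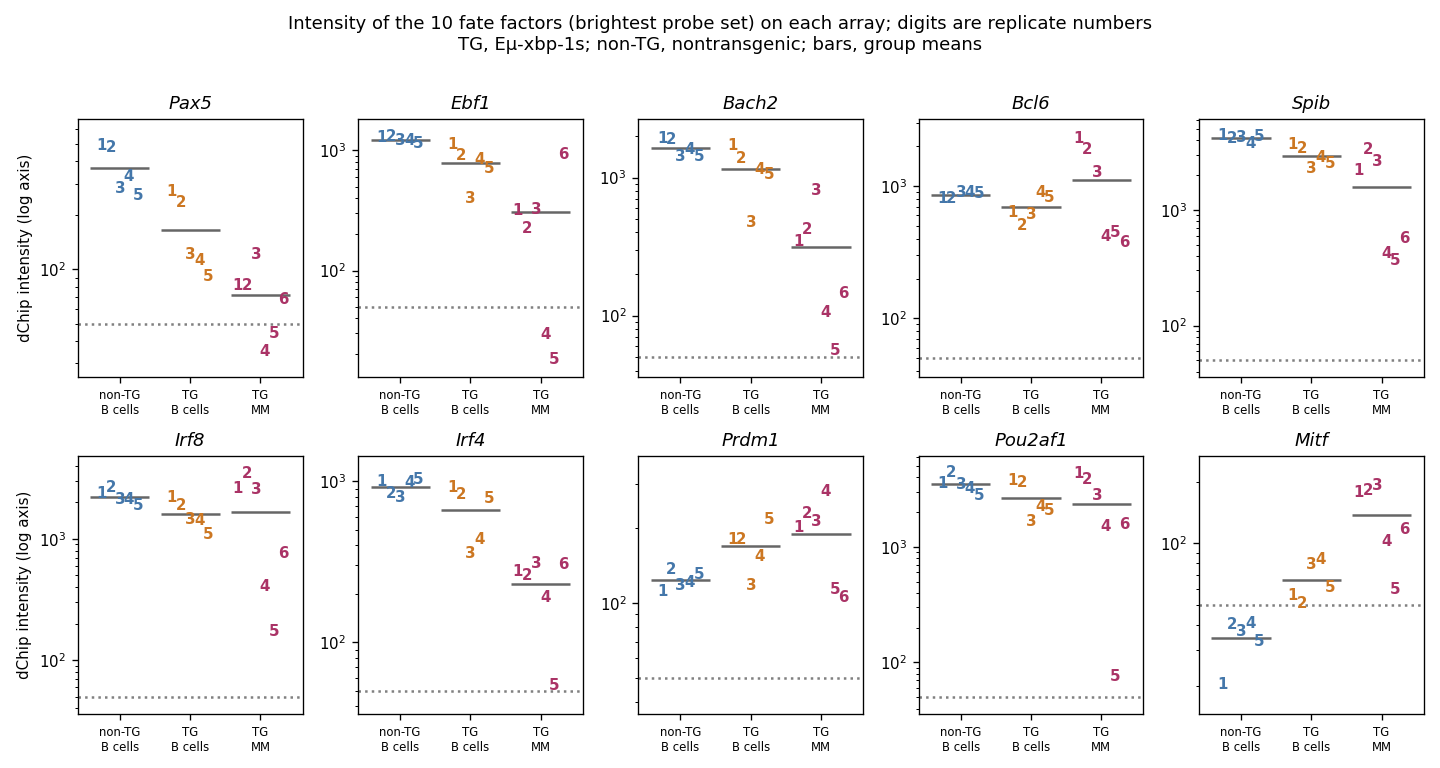
Intensity of the brightest probe set of each of the 10 factors on every array (log axis, dChip intensity), with digits for the replicate numbers, bars for the group means and a dotted line at the floor of 50. The bars for Pax5 fall from 366 through 167 to 71.8, of which only the difference between MM and nontransgenic B cells was called. The MM digits 4 to 6 lie below 1 to 3 for Pax5, Bach2, Bcl6, Spib, Irf8, Pou2af1 and Mitf, and not for Ebf1, Irf4 and Prdm1.

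Pax5, the factor that commits cells to the B lineage, fell in MM, and its lower mean in Eμ-xbp-1s B cells did not pass the test. The nontransgenic arrays read 492, 475, 280, 327 and 257 for replicates 1 to 5, and the Eμ-xbp-1s B cell arrays 271, 237, 121, 113 and 91.5. In MM the lowest value was 35.2, the median 74.5 and the highest 121. Every MM array lay below every nontransgenic array, while the B cell groups overlapped because Eμ-xbp-1s replicate 1 lay above nontransgenic replicate 5. Within each group of B cells, replicates 1 and 2 were the highest.

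The mean of Pax5 was 366 ± 110.2 (SD, n = 5) in nontransgenic B cells, 167 ± 81.5 (SD, n = 5) in those of Eμ-xbp-1s mice and 71.8 ± 30.8 (SD, n = 6) in MM. From nontransgenic B cells to MM the log2 fold change was -2.30 (SE 0.26, adjusted p = 0.000132, limma), and the second probe set gave -1.22 (adjusted p = 0.00051). Against Eμ-xbp-1s B cells Pax5 in MM was at -1.08 (adjusted p = 0.0537), with overlapping arrays, and did not pass. The call of the brightest probe set held without MM replicates 4 and 5, whose B cell markers were lowest, at -2.04 (adjusted p = 0.000431).

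Between Eμ-xbp-1s and nontransgenic B cells the log2 fold change of Pax5 was -1.22 (SE 0.32, adjusted p = 0.0387), which did not pass. With the replicate number as a replicate block the same difference had an adjusted p of 0.000906, and Pax5 was lower in all 5 same-numbered pairs. The labels do not give these pairs, and some arrays of unlike number deviated together as closely, so the block is not read as support. In an alternative chosen after seeing the data, replicates 1 and 2 alone gave -0.93 (adjusted p = 0.000726) and replicates 3 to 5 alone gave -1.41 (adjusted p = 0.00204). Eμ-xbp-1s replicates 1 and 2 were the closest pair of their group (SD of the log2 difference 0.215). The adjusted p of the first fit thus rests on the closeness of 2 arrays, and neither fit is read as support. With array weights the log2 fold change of Pax5 was -0.56 (adjusted p = 0.108). The 4 B cell markers differed by -0.71 on the log2 scale between the same groups, and relative to them Pax5 differed by -0.51, with overlapping arrays (-4.61 to -3.63 nontransgenic, -5.32 to -4.14 Eμ-xbp-1s).

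Ebf1, which opens the B cell programme upstream of Pax5, has 5 probe sets. For the brightest, nontransgenic replicates 1 to 5 read 1285, 1313, 1203, 1203 and 1151, and Eμ-xbp-1s B cells 1111, 903, 396, 834 and 713. MM ran from 18.0 through a median of 270 to 922. The B cell groups did not overlap, and the MM samples split widely: replicates 4 and 5 were under the floor at 29.4 and 18.0, whereas replicate 6 reached 922, within the range of the Eμ-xbp-1s B cells.

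From nontransgenic B cells to MM this probe set had a log2 fold change of -2.67 (SE 0.65, adjusted p = 0.0125, limma) and did not pass, with MM replicate 6 left out it was -3.12 (adjusted p = 0.00189), and without MM replicates 4 and 5 it was -1.70 (adjusted p = 0.00706). Of the 4 tested probe sets of Ebf1, 2 were called lower in MM, at -1.61 (adjusted p = 0.00209) and -1.55 (adjusted p = 0.00764), and the remaining tested probe set gave -2.25 (adjusted p = 0.0319). The fifth stayed between 3.62 and 77.0 over the 16 arrays and was not tested. Between the B cell groups the 4 tested probe sets gave -0.71, -0.30, -0.58 and -0.85, with adjusted p from 0.0329 to 0.355.

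In MM replicate 6, Ebf1 parted from Pax5, Bach2 and Spib. Irf4 read 302 there, inside the range of MM replicates 1 to 3 (260 to 307). Pax5 was at 67.8, Bach2 at 144 and Spib at 566 on this array. The B cell surface gene Ms4a1 (CD20) differed there from the nontransgenic mean by -4.89 on the log2 scale. Cd79a, which encodes a chain of the B cell receptor complex and is a target of Ebf1 and Pax5, differed by -1.03 there. The first 3 probe sets of Ebf1 read 922, 971 and 252 on that array, above every other MM array, and the fourth read 164, level with MM replicate 1. No replicate of this sample exists.

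Bach2, a repressor of Prdm1, fell in MM. Nontransgenic replicates read 1904, 1877, 1408, 1600 and 1412, and Eμ-xbp-1s B cells 1696, 1373, 476, 1147 and 1048. In MM the values ran from 56.0 through a median of 243 to 803. All MM arrays were below all nontransgenic arrays, and the MM array of replicate 3 lay above Eμ-xbp-1s replicate 3, which was the lowest of its group.

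The log2 fold change of Bach2 from nontransgenic B cells to MM was -2.92 (SE 0.56, adjusted p = 0.00387, limma), and that of the second probe set was -2.90 (adjusted p = 0.00338). The third gave -0.63 (adjusted p = 0.0468) and did not pass. Against Eμ-xbp-1s B cells, Bach2 in MM was at -2.30 (adjusted p = 0.032), -2.47 (adjusted p = 0.0156) and -0.17 (adjusted p = 0.718), none past the threshold. The call on the brightest probe set against nontransgenic B cells ended when any 1 nontransgenic array was left out (adjusted p 0.0101 to 0.0133), and stood without MM replicates 4 and 5 at -2.18 (adjusted p = 0.00424).

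Relative to the B cell markers, Bach2 was not set apart: its mean difference from them was -1.89 in nontransgenic B cells, -1.80 in Eμ-xbp-1s B cells and -1.99 in MM. The means of Ebf1 were -2.30, -2.30 and -2.14 and those of Pax5 -4.10, -4.61 and -3.57. On MM replicates 4 and 5 both genes were under the floor, Ebf1 at 29.4 and 18.0 and Pax5 at 35.2 and 44.1. Their differences on those arrays are set by the floor, so these MM means do not show whether either gene was lower. The MM arrays differed among themselves: on MM replicates 1 to 3 Bach2 was at -3.11, -2.60 and -1.81. Ebf1 lay at -3.21, -3.53 and -3.14 on these samples, below all 5 nontransgenic arrays (-2.45 to -2.16). On MM replicate 6 Ebf1 was at 0.11, above them, and on replicates 4 and 5 the floor set it at -2.28 and -0.81. Pax5 lay at -5.18, -4.98 and -4.54 on MM replicates 1 to 3, with the last inside the nontransgenic range.

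**Figure D2:**
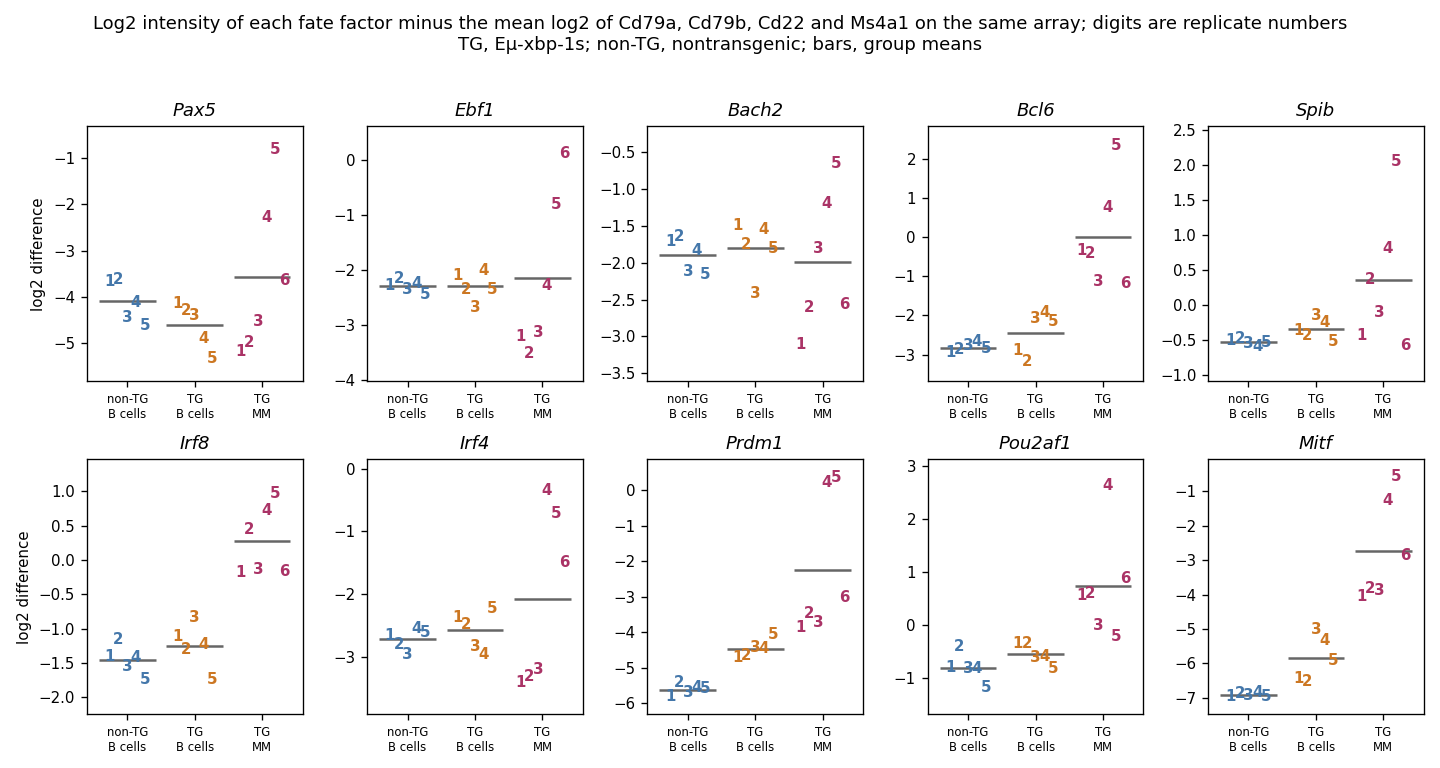
Log2 intensity of each factor minus the mean log2 of Cd79a, Cd79b, Cd22 and Ms4a1 on the same array, with digits for the replicate numbers and bars for group means. Bcl6, Irf8, Prdm1, Pou2af1 and Mitf lie above the nontransgenic arrays on all 6 MM arrays. The marker mean itself was 12.6 over nontransgenic and 9.74 over MM arrays, so a gene of unchanged intensity also rises here. Bcl6 rises by 2.82 with a log2 fold change of 0.00. The share of all probe sets that lie so was not counted. MM replicates 4 and 5 stand high for most factors because their marker mean is 7.93 and 6.46 against 12.5 to 12.6. The floor of 50 sets Mitf on all nontransgenic arrays, and Pax5 and Ebf1 on MM replicates 4 and 5.

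Bcl6, the repressor that defines germinal centre B cells, split the MM samples. Nontransgenic B cells read 809, 807, 898, 891 and 875, and Eμ-xbp-1s B cells 637, 508, 609, 891 and 825. In MM the lowest value was 376, the median 861 and the highest 2315. MM replicates 1, 2 and 3, at 2315, 1909 and 1279, exceeded every B cell array, and replicates 4, 5 and 6, at 413, 443 and 376, lay below every B cell array. No MM sample lay within the range of the B cells.

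With this split the MM group mean of 1123 ± 847 (SD, n = 6) did not differ from the 856 ± 44.6 (SD, n = 5) of nontransgenic B cells beyond its spread (log2 fold change 0.00, SE 0.47, adjusted p = 0.999, limma), and the direction of that value turned with several settings. The second probe set was also higher on MM replicates 1 to 3, at 588, 453 and 249.6, than on replicates 4 to 6, at 126, 81.0 and 99.1, which lay within the range of the Eμ-xbp-1s B cells (53.9 to 212). Its group difference was 0.14 on the log2 scale (adjusted p = 0.862). Against Eμ-xbp-1s B cells the values were 0.33 (adjusted p = 0.704) and 0.86 (adjusted p = 0.355).

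Of 6 genes known from germinal centre B cells, 5 were higher on each of MM replicates 1 to 3 than on any of 4 to 6, as Bcl6 was. Mef2b, a factor that acts on the Bcl6 gene, read 1337, 1547 and 740 on MM replicates 1 to 3 and 57.3, 29.7 and 26.5 on replicates 4 to 6, with 53.2 to 196 on nontransgenic arrays. Rgs13, which dampens chemokine signals, read 2034, 711 and 1346 against 3.16, 5.99 and 14.3. Gcsam, a germinal centre signalling protein, read 869, 922 and 334 against 81.3, 78.2 and 49.8. S1pr2, a receptor that confines cells to the follicle, read 845, 1022 and 419 against 323, 246 and 389. Mybl1, a Myb family factor, read 490, 321 and 228 against 41.2, 59.3 and 75.6. Fas, a death receptor, broke the pattern at 372, 83.2 and 310 against 111, 26.0 and 29.7, with replicate 2 below replicate 4. Mybl1 and Fas complete the list and were named after their values were seen. This split of the MM arrays was taken from the same data, and the order was not particular to the list. The T cell gene Cd3d showed it, at 566, 755 and 866 against 54.5, 45.3 and 33.1, though not every gene of the T cell list did. Of the B cell markers, Ms4a1 and Cd22 showed it too, Ms4a1 at 5531, 5485 and 3497 against 118, 60.3 and 238. Cd79a and Cd79b did not, with MM replicate 6 at 3346 and 1757. The share of all probe sets with this order was not counted.

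In the group comparison, 0 of 6 tested genes of the germinal centre list were called by limma in MM against nontransgenic B cells, and 0 at an unadjusted p under 0.05. Their median log2 fold change was 0.62, beside -0.03 over all 21894 probe sets tested. In MM against Eμ-xbp-1s B cells 0 of 6 were called (1 higher at an unadjusted p under 0.05), and between the B cell groups 0 of 4 (2 lower). On the nontransgenic arrays Mef2b, Rgs13 and Gcsam were themselves highest on replicates 3 and 4.

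**Figure D3:**
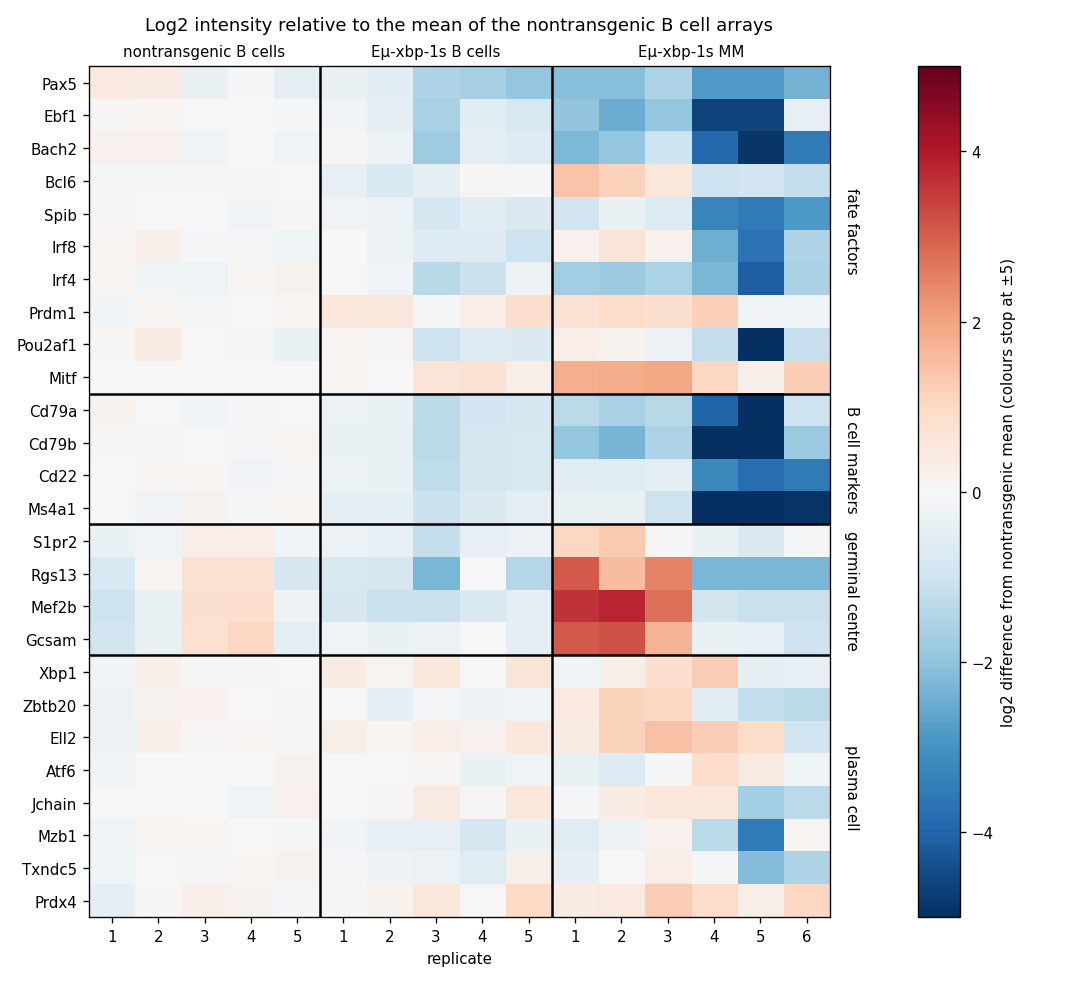
Log2 intensity of the 10 factors, 4 B cell markers, 4 germinal centre genes and 8 plasma cell genes on each array (columns, by group and replicate), relative to the mean of the 5 nontransgenic arrays after the floor of 50. Blue is lower and red higher, with colours ending at a log2 difference of 5 in size. MM replicates 1 to 3 are red for Bcl6 and the germinal centre genes and replicates 4 to 6 blue, except that S1pr2 is near 0 on MM replicates 3 (0.04) and 6 (-0.07).

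Spib, an Ets factor of mature B cells, and Irf8, an interferon regulatory factor of B and dendritic cells, divided the MM samples too. So did the brightest probe sets of Pax5, Bach2, Pou2af1 and Mitf, each lower on MM replicates 4 to 6 than on 1 to 3. Spib read 4384, 4181, 4186, 3766 and 4316 in nontransgenic and 3672, 3401, 2289, 2814 and 2530 in Eμ-xbp-1s B cells, and from 363 through a median of 1369 to 3300 in MM. The B cell groups did not overlap, and MM lay below nontransgenic B cells throughout. MM replicates 1 to 3 were at 2172, 3300 and 2598, and replicates 4 to 6 at 423, 363 and 566.

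The log2 fold change of Spib was -0.52 (SE 0.15, adjusted p = 0.0539, limma) between the B cell groups and -1.94 (SE 0.57, adjusted p = 0.0292) in MM against nontransgenic B cells, and neither passed. Relative to the B cell markers its means did not follow that direction: they were -0.54 in nontransgenic, -0.35 in Eμ-xbp-1s B cells and 0.34 in MM. The MM mean was raised by replicates 4 and 5, at 0.80 and 2.04, whose marker means were lowest. MM replicates 1 to 3 were at -0.44, 0.36 and -0.12. Replicate 6, at -0.59, lay inside the nontransgenic range of -0.60 to -0.49.

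Irf8 read 2372, 2640, 2105, 2124 and 1889 in nontransgenic and 2210, 1870, 1433, 1427 and 1091 in Eμ-xbp-1s B cells. MM ran from 172 through a median of 1669 to 3475, with replicates 1 to 3 at 2595, 3475 and 2576 and replicates 4 to 6 at 403, 172 and 762. The MM samples thus lay on either side of the Eμ-xbp-1s B cells. The log2 fold change in MM against nontransgenic B cells was -1.10 (SE 0.69, adjusted p = 0.279, limma), and that of the second probe set was -1.29 (adjusted p = 0.2).

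Relative to the B cell markers Irf8 was above every nontransgenic and Eμ-xbp-1s B cell array on all 6 MM arrays, from -0.18 to 0.97 beside -1.73 to -1.15 and -1.74 to -0.83. The marker mean was 12.6, 11.9 and 9.74 in nontransgenic B cells, Eμ-xbp-1s B cells and MM, so an unchanged gene also rises on this scale. Dendritic cells also express Irf8, and Spib is found in plasmacytoid dendritic cells. Of the plasmacytoid list 0 of 4 tested genes were called in each comparison (1 higher between the B cell groups and 1 lower in MM against Eμ-xbp-1s B cells at an unadjusted p under 0.05), and its defining surface gene Siglech stayed between 27.5 and 85.8 on all arrays. Pacsin1 and Ccr9 of that list divided the MM samples as Irf8 did, Pacsin1 at 182, 477 and 398 on replicates 1 to 3 and 42.6, 34.4 and 54.2 on replicates 4 to 6. Ccr9 read 259, 314 and 299 against 107, 93.4 and 137. The list's mean log2 level was 7.56 to 7.80 on MM replicates 1 to 3 and 6.99 to 7.12 on 4 to 6, beside 7.41 to 7.54 on nontransgenic arrays, and its part in the values of Irf8 and Spib was not tested. Of the conventional dendritic cell list 0 of 5 tested genes were called in MM against nontransgenic B cells (2 higher at an unadjusted p under 0.05). In Eμ-xbp-1s B cells 1, Batf3, was called higher at 1.19 (adjusted p = 0.00157, limma). Batf3 read at most 91.2 on nontransgenic arrays, so it entered that test only through the Eμ-xbp-1s arrays.

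Irf4, which plasma cells need and which myeloma cells are known to depend on, fell in MM. Nontransgenic arrays read 991, 839, 791, 977 and 1032, and Eμ-xbp-1s B cells 919, 826, 357, 432 and 783. In MM it ran from 53.5 through a median of 268 to 307. All MM arrays lay below all B cell arrays of both groups. MM replicate 5 was far below the others, which lay between 190 and 307.

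The log2 fold change of Irf4 was -2.19 (SE 0.39, adjusted p = 0.0026, limma) in MM against nontransgenic B cells, and the second probe set gave -1.16 (SE 0.19, adjusted p = 0.00138). The call of the brightest probe set held without MM replicates 4 and 5, at -1.69 (adjusted p = 4.37e-05). Against Eμ-xbp-1s B cells it was -1.62 (SE 0.44, adjusted p = 0.0375), and between the B cell groups it was -0.57 (SE 0.25, adjusted p = 0.233), with neither called. On MM replicates 1 to 3 the difference from the B cell markers was -3.41, -3.30 and -3.20, below the nontransgenic range of -2.96 to -2.54, while on replicates 4 to 6 it was -0.35, -0.72 and -1.50, above it.

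Prdm1 was the tested member with a positive difference between the B cell groups. Nontransgenic arrays read 111, 136, 117, 121 and 130, and Eμ-xbp-1s arrays 181, 181, 118, 153 and 217. In MM the range was 105 to 280 with a median of 207. Eμ-xbp-1s replicate 3 and MM replicates 5 and 6 lay within the nontransgenic range or below it, and the other arrays above it. The log2 fold changes were 0.44 (SE 0.16, adjusted p = 0.144, limma) in Eμ-xbp-1s B cells and 0.54 (SE 0.25, adjusted p = 0.144) in MM against nontransgenic B cells, so neither passed. T cells and macrophages also express Prdm1, and in Eμ-xbp-1s B cells 2 of 11 macrophage genes, Csf1r at 1.45 and Cd14 at 1.13, were called higher beside the T cell genes.

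Of the genes that Blimp-1 represses, 0 of 6 were called between the B cell groups (3 lower at an unadjusted p under 0.05), where the median log2 fold change was -0.56. In MM against nontransgenic B cells 2 of 6 were called lower, Pax5 and Id3, an inhibitor of E proteins, at -1.49 (adjusted p = 0.000219, limma), with a median of -1.70 over the 6, which also hold Bcl6 and Spib.

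The genes that carry out the plasma cell programme did not pass. Of 6 plasma cell regulators and 9 products, 0 were called by limma in each of the 3 comparisons. At an unadjusted p under 0.05, 1 regulator was higher and 1 product lower between the B cell groups, 1 regulator was lower and 1 product higher in MM against nontransgenic B cells, and 0 passed in MM against Eμ-xbp-1s B cells. Xbp1 read 1802 to 2452 in nontransgenic B cells, 2040 to 3108 in Eμ-xbp-1s B cells and 1477 to 4979 in MM, overlapping throughout. Ell2, an elongation factor for immunoglobulin transcripts, read 234 to 342, 309 to 414 and 149 to 801. The joining chain gene Jchain read 4564 to 6065, 5341 to 7802 and 1620 to 7843, and Mzb1, an endoplasmic reticulum chaperone of B and plasma cells, 2818 to 3536, 1775 to 2931 and 283 to 3713. In MM against nontransgenic B cells the median log2 fold change was 0.10 over the regulators and -0.27 over the products.

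Pou2af1 is the member whose promoter held the XBP1 site shown above, and its difference between the B cell groups did not pass. Whether XBP-1s acts at that site was not tested. Nontransgenic arrays read 3556, 4386, 3448, 3205 and 2753, and Eμ-xbp-1s arrays 3721, 3596, 1665, 2220 and 2065. MM ran from 75.7 through a median of 2172 to 4314. Eμ-xbp-1s replicates 1 and 2 lay among the nontransgenic arrays and replicates 3 to 5 below them, and MM replicate 5 was the single array near the floor. The log2 fold change was -0.44 (SE 0.23, adjusted p = 0.315, limma) between the B cell groups, and 0.025 with array weights. In MM against nontransgenic B cells it was -1.28 (SE 0.85, adjusted p = 0.309), and -0.24 without MM replicates 4 and 5. Relative to the B cell markers Pou2af1 differed by 0.27 between the B cell groups, with overlapping arrays (-1.19 to -0.42 nontransgenic, -0.82 to -0.36 Eμ-xbp-1s). On all 6 MM arrays it was above every nontransgenic array on this scale, from -0.22 to 2.62. The marker mean fell from 12.6 in nontransgenic B cells to 9.74 in MM, so an unchanged gene also rises on it.

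Mitf was dim, and its brighter probe set lay below the floor in nontransgenic B cells. Nontransgenic arrays read 20.4, 40.0, 37.0, 40.7 and 33.1, all under 50, and Eμ-xbp-1s B cell arrays 55.5, 50.5, 79.1, 83.1 and 60.6, all over it. In MM the lowest was 59.1, the median 147 and the highest 192. Every Eμ-xbp-1s B cell and MM array was above every nontransgenic array, and MM replicate 5 alone lay among the Eμ-xbp-1s B cells. The probe set was too dim for the test between the B cell groups.

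In MM against nontransgenic B cells Mitf was at least 2.55-fold higher (log2 fold change at least 1.35, SE 0.28, adjusted p = 0.00525, limma), a bound that moves with the floor. The probe set exceeded 100 on 5 of 6 MM arrays and on no nontransgenic array, so it entered the test only through the group where it was high, and its call supports nothing further. The call ended with a floor of 100 (adjusted p = 0.109), with no filter (adjusted p = 0.0234), with the mean of both probe sets (adjusted p = 0.0147) and with the replicate block (adjusted p = 0.0126). The call also ended without any 1 nontransgenic array (adjusted p 0.0142 to 0.0155) and without MM replicate 1 or 2 (adjusted p = 0.0114 and 0.0109). Against Eμ-xbp-1s B cells the log2 fold change was 0.98 (SE 0.30, adjusted p = 0.0566), and it passed without MM replicates 4 and 5 at 1.34 (adjusted p = 0.00635). No Eμ-xbp-1s B cell array exceeded 100 either, so the probe set entered this test too only through the MM arrays. Its pass supports nothing further. The second probe set was too dim to be tested, with means of 29.8 ± 7.30 (SD, n = 5) in nontransgenic B cells, 24.7 ± 6.71 (SD, n = 5) in those of Eμ-xbp-1s mice and 53.4 ± 17.7 (SD, n = 6) in MM, and so was not higher in Eμ-xbp-1s B cells.

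Other cells express Mitf, and their markers were read beside it. Of the melanocyte list the 5 genes had mean log2 levels of 5.98 to 6.12 in nontransgenic B cells, 5.90 to 6.28 in Eμ-xbp-1s B cells and 5.95 to 6.10 in MM, close to the floor of 5.64 on that scale, and 0 of 1 tested gene was called in each comparison. The osteoclast list ran from 6.83 to 7.11, 6.53 to 6.90 and 6.58 to 7.15. Of the mast cell list 1 gene, Kit, was bright enough to be tested. It was called higher in Eμ-xbp-1s B cells (1.33) and in MM (1.37), each against nontransgenic B cells. Kit read at most 51.6 on nontransgenic arrays, so it entered each test only through the group where it was high. Its calls support nothing further. Of 11 macrophage genes 1 was called higher in MM against nontransgenic B cells, and their mean log2 level ran from 7.65 to 8.18 in the latter and from 8.57 to 10.6 in MM.

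Of the genes that Mitf activates, 0 of 2 tested were called in MM against nontransgenic B cells (1 higher at an unadjusted p under 0.05). Gpnmb, a glycoprotein gene also active in macrophages, read 379, 721 and 402 on MM replicates 1 to 3 and 65.6, 77.0 and 97.7 on replicates 4 to 6, against 43.1 to 64.7 in nontransgenic B cells, with a log2 fold change of 1.83 (adjusted p = 0.0411, limma). Acp5, the acid phosphatase of osteoclasts and macrophages, read 928 to 2260 in nontransgenic B cells and 297 to 1708 in MM.

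**Figure D4:**
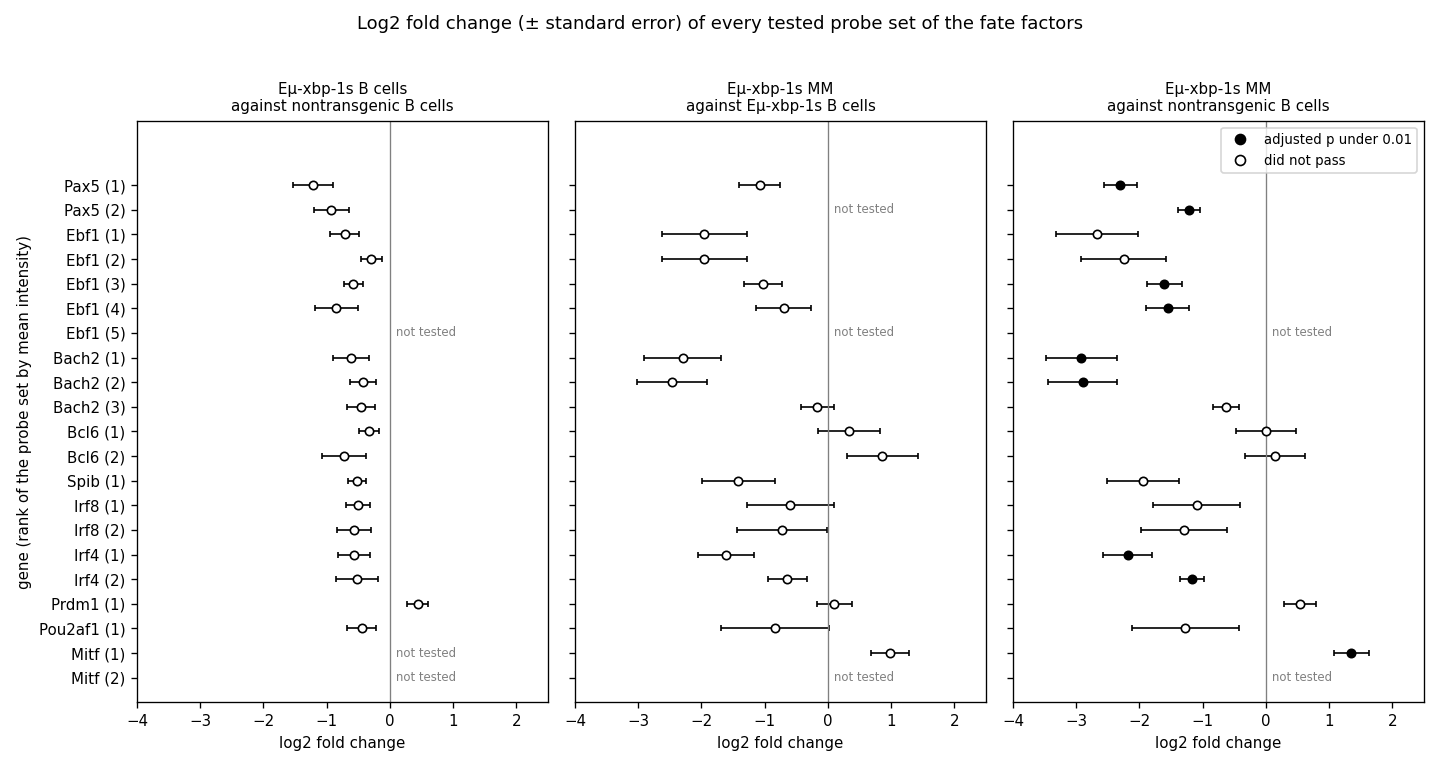
Log2 fold change with its standard error for every tested probe set of the 10 factors, in the 3 comparisons, with filled points for an adjusted p under 0.01 and the rank of each probe set by mean intensity in brackets. The calls fall in MM against nontransgenic B cells, where 8 probe sets were lower and 1 higher, and between the B cell groups all tested probe sets but that of Prdm1 lie left of 0.

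Counted together, the factors lay below 0 more often than above it in each comparison. Between the B cell groups, 17 of 18 tested probe sets (9 genes) lay below 0, with a median log2 fold change of -0.55 beside -0.05 over all 20596 probe sets tested. By limma 0 were called lower, where 0.481% of all were, and 0 higher, where 2.75% were. At an unadjusted p under 0.05, 8 were lower (9.47% of all) and 1, Prdm1, was higher (10.6% of all). The groups did not overlap for 3 tested probe sets, which were lower (3.37% of all), 2 of Ebf1 and that of Spib, and for 0 in the other direction (5.60% of all).

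Eμ-xbp-1s B cell replicate 3 held the lowest value of its group in 14 of the 21 probe sets, its B cell markers were the lowest of the group at 11.3, and its erythroid genes the highest, with Alas2, of haem synthesis, at 4045 against 329 to 559 on the other arrays of the group. The part of erythroid RNA in its values was not tested. Replicates 1 and 2 of the Eμ-xbp-1s B cells differed by a standard deviation of 0.215 on the log2 scale over probe sets, less than any other pair of that group (0.415 to 0.807). Averaged as 1 sample, they gave Pax5 a log2 fold change of -1.41 (adjusted p = 0.0184, limma) against nontransgenic B cells.

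In MM against Eμ-xbp-1s B cells 14 of 18 tested probe sets were below 0, with a median of -0.78 beside 0.00 over all 22194. By limma 0 were called lower (1.91% of all) and 0 higher (1.28% of all). At an unadjusted p under 0.05, 8 were lower (15.2% of all) and 1, Mitf, higher (11.4% of all). The probe set of Mitf passed the filter only through the MM arrays. The groups did not overlap for 2, the second probe set of Bach2 and the brightest of Irf4, both lower in MM (4.15% of all), and for 0 in the other direction (4.04% of all). The MM arrays also enter the comparison with nontransgenic B cells, so the values of these comparisons share samples.

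In MM against nontransgenic B cells 16 of 19 tested probe sets were below 0, with a median of -1.29 beside -0.03 over all 21894. By limma 8 of 19 were called lower (5.65% of all), 2 each of Pax5, Ebf1, Bach2 and Irf4, and 1 was called higher (3.95% of all), that of Mitf, which passed the filter only through the MM arrays. The count of 8 went to 3 with no filter and ran from 4 to 10 with 1 array left out, with 4 without nontransgenic replicate 1 or 2 and 5 without replicate 5. The groups did not overlap for 10 lower probe sets (9.55% of all) and 1 higher (6.59% of all). The called genes thus joined both sides of the plasma cell switch, the B cell keepers Pax5, Ebf1 and Bach2 and the plasma cell driver Irf4, all in the same direction.

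Some of the genes on which these factors act, or act beside, were called too. Of 6 tested Pax5-activated genes 3 were called lower in MM against nontransgenic B cells, the complement receptor Cr2 at -5.19, the low-affinity IgE receptor Fcer2a at -4.42 and the B cell co-receptor Cd72 at -2.69. The same 3 were called lower in MM against Eμ-xbp-1s B cells, at -4.38, -3.47 and -1.75, and 0 of 6 between the B cell groups, where the median was -0.78 and 6 of 6 were lower at an unadjusted p under 0.05. Of the 9 mature B cell genes 4 were called lower in MM against nontransgenic B cells, 0 between the B cell groups and 2 in MM against Eμ-xbp-1s B cells. Cr2, Fcer2a, Cd22 and Cd79a are on both of these lists, so the counts are not separate. The 2 called against Eμ-xbp-1s B cells were Cr2 and Fcer2a, which are also among the 4. Between the B cell groups 9 of 9 were lower at an unadjusted p under 0.05. Of 13 other B lineage regulators 5 were called lower in MM against nontransgenic B cells. Among them were Bcl11a at -2.74, Foxp1 at -2.43, Foxo1 at -1.63 and Pou2f2, an octamer factor that Pou2af1 serves, at -1.61. Id3, counted above among the genes that Blimp-1 represses, completes the 5. In Eμ-xbp-1s B cells Bcl11a was called lower at -0.82. Lef1, a factor of early B cells and of T cells, was called higher at 3.11 (adjusted p = 8.82e-07, limma). It was read beside the 8 T cell genes that were called higher in the same comparison. Lef1 read at most 76.9 on nontransgenic arrays, so it entered this test only through the Eμ-xbp-1s arrays. Its call supports nothing further.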

How the data were processed

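Affymetrix mouse arrays measured RNA of 5 nontransgenic and 5 Eμ-xbp-1s B cell samples and 6 Eμ-xbp-1s MM samples, grouped by the sample labels. In dChip the authors scaled every array to that of overall median brightness, computed model-based expression from perfect match minus mismatch probes and deposited 1 linear intensity per probe set and array. B cell arrays are from separate mice. The labels do not say whether each tumour came from a separate mouse, so the spread among tumours may be partly technical. The 64 control probe sets were left out, and symbols come from the platform annotation (34958 probe sets with 1 symbol). A floor of 50 was applied, a probe set was kept if over 20% of the arrays compared exceeded 100, and log2 values were compared with limma 3.58.1 (R 4.3.3; lmFit and eBayes, fitted separately for each comparison), with Benjamini-Hochberg adjustment over all tested probe sets and a threshold of 0.01. The SAM test and presence calls of the methods were not run here. limma was tested on simulated data. A further B cell marker planned for the marker mean is not reported here. The members and gene lists were chosen with earlier results of these data known. All 10 members are named by every probe set, described first by the one with the highest mean over 16 arrays, and other genes come from the lists, up to 4 each, called genes first. B cell arrays of the same number in both genotypes deviated together (r over probe sets 0.512, 0.527, 0.218, 0.176 and 0.512). By a rule on these correlations, and not by the labels, the numbers were read as pairs. Some arrays of unlike number correlated more closely, such as Eμ-xbp-1s replicate 1 with nontransgenic replicate 2 (0.593) and 4 with 3 (0.466). Replicates 1 and 2 parted from 3 to 5 in both groups, so the replicate block rests on a number alone. The number of arrays limits precision. Alternatives covered the floor, filter, normalization, variance model, threshold, samples in the fit, array weights, replicate block, probe sets of a gene and each array left out.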

Additional observations from a re-analysis of the deposited data

Results flagged for a closer look

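Among 59 groups of 5 or 6 samples tested for a single far-off sample, 4 were found, and chance gives about 1 in 20. In the third probe set of Ebf1, Eμ-xbp-1s B cell replicate 3 was at 158.7, below the other replicates at 229.4 to 260.3. In the fifth probe set of Ebf1, Eμ-xbp-1s B cell replicate 1 was at 52.76 and the others at 3.621 to 16.6, under the floor. MM replicate 5 lay apart in Irf4, at 53.55 against 190.4 to 307.3, and in Pou2af1, at 75.75 against 1489 to 4314.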

How the results depend on the processing

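Of 743 values of single genes under alternatives, 675 kept their direction and side of the threshold, 30 came to pass, 18 no longer passed and 20 changed direction. The cause of these changes was not tested, and the number of arrays limits all calls. Between the B cell groups the count of member probe sets called lower went from 0 to 2 at an adjusted p under 0.05, 3 with array weights, 1 with the replicate block, 2 without replicates 1 and 2 of both groups and 1 without replicates 3 to 5 of both groups (the last pair chosen after seeing the data), and the count called higher from 0 to 1 with array weights, where Pou2af1 turned to 0.025. Leaving out 1 array kept both counts at 0. In MM against Eμ-xbp-1s B cells the count called lower went from 0 to 1 with the filter on the standard deviation, 4 at 0.05, 3 with all groups in a single fit, 8 with array weights and 1 with median scaling, and ran from 0 to 2 with 1 array left out (2 without MM replicate 3, 1 without MM replicate 6), and the count called higher went from 0 to 2 with array weights and 1 without MM replicates 4 and 5. There Irf8 turned to 0.37 with array weights and 0.40 without MM replicates 4 and 5, Pou2af1 to 0.21 without MM replicates 4 and 5. With 1 array left out Pou2af1 ran from -1.15 to 0.012 (the latter without MM replicate 5) and Prdm1 from -0.028 to 0.26 (below 0 without MM replicate 4 or replicate 3 of the Eμ-xbp-1s B cells). In MM against nontransgenic B cells the count called lower went from 8 to 3 with no filter and ran from 4 to 10 with 1 array left out (4 without nontransgenic replicate 1 or 2, 5 without 5), and the count called higher went from 1 to 3 with array weights and to 0 with a floor of 100, no filter or the replicate block, and ran from 0 to 1 with 1 array left out (0 without any 1 nontransgenic array or MM replicate 1 or 2). There Irf8 turned to 0.19 with array weights. Bcl6, at 0.00, turned to 0.89 with array weights, 0.070 with the mean of its probe sets, 0.021 with a pseudocount, 0.10 with quantile normalization, 0.24 with the replicate block and 0.50 without MM replicates 4 and 5, and ran from -0.29 to 0.24 with 1 array left out (above 0 without MM replicate 4, 5 or 6 or nontransgenic replicate 3, 4 or 5). Same-numbered MM and B cell arrays did not deviate together in every pair, so there too the block rests on a number alone. The brightest probe set of Pax5 was called lower in MM against nontransgenic B cells under every alternative run. Median scaling moved the median of all probe sets in that comparison to -0.137.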
